A study of Mus musculus with 8 samples.

Results

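Long noncoding RNA interval probes are 60-base oligonucleotides that the Agilent mouse array names only by a genomic interval and a strand, F for forward and R for reverse, with no gene. They were chosen by that form of name on a numbered chromosome and by a signal that both arrays of some group, among the 4, flagged as well above background. The design held 15604 such probes under 4429 stranded names, and 8451 of them (54.2%) passed, against 29502 of 40077 other probes (73.6%). The members covered 2747 intervals, 1582 of which overlapped another one, so that they formed 1781 separate loci. A name had a median of 2 member probes and at most 10. Members of 1 interval, or of overlapping intervals, can share a transcript or a sequence and are not taken as independent.

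The study grew mouse embryonic stem cells that were wild type (WT) or heterozygous for Nkx2-5 R141C, an amino acid change in a homeodomain factor of heart development. RNA was taken at day 0, before differentiation, and at day 6. Cells were aggregated into embryoid bodies in hanging drops without the self-renewal factor LIF, kept in suspension, and plated on gelatin before collection. Each of the 4 groups had 2 biological replicates, 1 array each, and the labels name neither a second line of a genotype nor the origin of the cells, so line and genotype cannot be told apart.

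All 8 arrays came from 1 slide, with day 0 in 1 column and day 6 in the other and WT above R141C in each, so place on the slide and group cannot be told apart. Of the interval probes, 49.6% to 60% were well above background on the day 0 arrays and 35.1% to 45.4% on the day 6 arrays; for other probes the ranges were 70.5% to 74.6% and 63.8% to 69.3%. All 7 markers of pluripotent cells had a lower mean at day 6 than at day 0 in both genotypes. The summed linear signal of 8 heart muscle markers, in units of the 75th percentile of an array, was 318 to 396 on the WT arrays of day 6 and 9.47 to 111 on the R141C arrays, against 5.5 to 16.3 in WT and 15.2 to 37 in R141C at day 0. Day 6 cultures were mixtures, since markers of primitive blood summed to 246 to 557 in WT and 170 to 318 in R141C, and those of visceral endoderm to 30.3 to 33.4 and 15.1 to 46.1. In such bulk samples, fewer cells of a type and less RNA per cell cannot be told apart. The part of these mixtures in the results below was not tested.

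Long noncoding RNAs are transcripts without a translated open reading frame. Many are spliced and polyadenylated, many are made from only 1 cell type or stage, and a good number start near the promoter of a protein-coding gene, on either strand. Some act on their own chromosome, as Airn does when it silences its imprinted neighbour Igf2r, and for many the act of transcription or no function at all has been described. In pluripotent cells a class of such RNAs, the Platr transcripts, is known for falling when the cells differentiate. Array intervals of this kind come from transcribed or chromatin-marked stretches and need not each be 1 transcript. Of 8431 tested members, 534 (6.3%) lay in an interval that also held, on its own strand, a probe named for a protein-coding gene, and 402 more had one only on the other strand. For the remaining 7495 no coding gene's probe lay inside, which does not show that they are noncoding.

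The sequences that carry the results are given here as deposited, 5′ to 3′, with positions in the mouse build mm9. The probe has the sense of the interval's strand, so that a probe of an R interval is written from the minus strand. The first lies upstream of Tbx5 at chr5:120280943-120281002 on the minus strand, and was lower in R141C than in WT at day 6.
A_30_P01032687: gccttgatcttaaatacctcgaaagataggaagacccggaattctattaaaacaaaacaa
The next probes read the 2 strands of 1 place upstream of Tbx5, chr5:120279227-120279286 on the minus strand and chr5:120279228-120279287 on the plus strand; the 59 bases in capitals are reverse complements of each other.
A_30_P01021685: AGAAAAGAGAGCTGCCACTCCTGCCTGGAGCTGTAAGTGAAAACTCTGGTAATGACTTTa
A_30_P01025681: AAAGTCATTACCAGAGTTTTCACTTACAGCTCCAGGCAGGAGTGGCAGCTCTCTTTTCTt
The probes of chr4:124128475-124128534 (minus) and chr13:94186384-94186443 (plus) were higher in R141C than in WT at day 6.
A_30_P01017973: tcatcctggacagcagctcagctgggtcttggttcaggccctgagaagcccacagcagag
A_30_P01030768: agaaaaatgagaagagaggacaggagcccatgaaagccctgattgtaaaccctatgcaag

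Among the largest rises from day 0 to day 6 in WT were probes near Smad5 at chr13:56851593-56851652 (minus), near 2810405F15Rik at chr2:115900836-115900895 (plus) and inside Airn at chr17:13023017-13023076 (plus).
A_30_P01031881: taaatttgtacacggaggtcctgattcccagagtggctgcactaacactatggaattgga
A_30_P01031324: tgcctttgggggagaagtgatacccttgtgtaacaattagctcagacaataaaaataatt
A_30_P01023109: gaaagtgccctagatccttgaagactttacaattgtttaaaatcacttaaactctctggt
The largest fall by its bounded fold was of a probe at chr4:146019928-146019987 (plus), and a probe at chr3:75452156-75452215 (minus) fell with Platr10.
A_30_P01031321: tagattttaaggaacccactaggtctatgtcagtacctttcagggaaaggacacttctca
A_30_P01020183: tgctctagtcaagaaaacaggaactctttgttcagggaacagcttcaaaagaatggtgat
A pair from a repeated zinc finger region, chr4:145665929-145665988 (plus) and chr4:146157599-146157658 (minus), shows how alike probes of distant intervals can be; capitals mark their 35-base longest shared run.
A_30_P01028789: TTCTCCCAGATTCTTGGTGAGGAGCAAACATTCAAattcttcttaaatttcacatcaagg
A_30_P01023018: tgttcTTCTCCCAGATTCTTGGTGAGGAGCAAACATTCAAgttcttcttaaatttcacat

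Upstream of Tbx5, a T-box factor needed for heart chamber and forelimb formation, 1 probe was near the floor of the array at day 0 in both genotypes and was higher at day 6, in WT more than in R141C. Levels are given throughout as log2 signal relative to the 75th percentile of the array, so that 0 is a bright probe. Whether a signal was above background was read from the scanner software's flag, which some probes as high as -5.26 (A_30_P01031321 in WT at day 6) did not pass. The probe A_30_P01032687, of interval chr5:120253747-120281800_R, read -8.28 and -8.70 in WT and -7.92 and -8.16 in R141C at day 0. At day 6 it read -1.03 and -1.22 in WT and -5.46 and -4.54 in R141C. The WT arrays of day 6 were above all 6 other arrays, and the R141C arrays of day 6 lay between those and the day 0 arrays.

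In limma's moderated test with Benjamini-Hochberg adjustment over all 37889 tested probes, the rise of A_30_P01032687 in WT was 7.37 ± 0.34 (SE) on the log2 scale (adjusted p = 0.000249) and in R141C 3.04 ± 0.34 (adjusted p = 0.003). Since no day 0 array was well above background, the folds are bounds: at least 42.6-fold in WT and at least 2.43-fold in R141C. Such a bound sets the mean of the brighter group against the dimmest signal accepted as above background, or the dim probe's own signal where that is higher. At day 6 the probe was 14.6-fold lower in R141C than in WT (log2 difference -3.87 ± 0.34, adjusted p = 0.0429), with 1 of 2 R141C arrays above background. It passed the filter only through the WT arrays of day 6, and without the filter on dim probes it was not called (adjusted p = 0.0819). The call was lost without any single array other than R141C day 6 replicate 2, with an adjusted p of 0.0881 to 0.302, and also with quantile normalization (adjusted p = 0.0589) or a median shift (adjusted p = 0.0628) in place of the 75th percentile. All 8 heart muscle markers had lower means in R141C than in WT at day 6, as did all 4 neural markers, which summed to 12 to 12.3 in WT and 3.88 to 5.42 in R141C. Of 4 endothelial and 5 fibroblast markers, 2 and 1 were lower. Among 4 primitive blood and 4 visceral endoderm markers, 2 and 3 were lower. Only 1 of 7 pluripotent markers was lower, and these summed to 60.2 to 69.7 in WT and 85.1 to 107 in R141C. The part of these markers in the difference was not tested. The change in R141C minus that in WT was -4.32 (adjusted p = 0.199), and at day 0 the genotypes differed by 0.45 (adjusted p = 1).

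The Tbx5 gene's own probe, on the plus strand, read -8.07 and -6.68 in WT and -7.18 and -6.63 in R141C at day 0, then 0.98 and 0.67 in WT and -3.45 and -1.30 in R141C at day 6. Its rise was called in WT (8.20, adjusted p = 0.000953) and in R141C (4.53, adjusted p = 0.0104), while its difference at day 6, -3.20, was not (adjusted p = 0.329). The day 6 levels of the gene and of the interval probe had the same order of groups, WT above R141C, with no overlap in either. Such an absence of overlap was common: at day 6, 3437 of 8431 tested members (40.8%) had none between the genotypes.

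The other 12 probes of the 2 overlapping intervals upstream of Tbx5 included 3 members, none of which was called in any comparison, and 9 probes that were not members and not tested. Those of chr5:120253747-120281800_R, A_30_P01031447 and A_30_P01033216, stood at -7.74 to -4.41 over all arrays and were not members. In interval chr5:120269342-120279542, 3 of 5 reverse probes and 0 of 5 forward probes were members. A_30_P01021685 was well above background on all 8 arrays, at -2.91 and -2.87 in WT and -2.68 and -2.86 in R141C at day 0, then -1.81 and -2.37 in WT and -2.20 and -2.62 in R141C. Its changes of 0.80 in WT (adjusted p = 0.0728) and 0.36 in R141C (adjusted p = 0.411) missed the threshold.

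A_30_P01017756 was also above background on all arrays, from -5.18 to -3.95, with changes of 0.49 (adjusted p = 0.181) and 0.76 (adjusted p = 0.0788). A_30_P01023819 was above background at day 0 only, from -5.45 to -4.80, and stood at -6.17 to -5.73 at day 6 (changes of -0.80 in each genotype, adjusted p = 0.0621 and 0.0798). At day 6 the genotype differences of these 3 were -0.32, 0.46 and -0.24, none called (adjusted p = 0.755, 0.638 and 0.806). The forward probe A_30_P01025681, over the same bases as A_30_P01021685, was above background on 1 of 8 arrays, and read -7.67 to -6.21. Of the remaining reverse probes, A_30_P01029862 stood at -5.51 and -6.44 in WT at day 6 and at -8.69 to -7.59 on the other arrays, without passing the background flag on any, so that its WT arrays of day 6 were the highest, as for A_30_P01032687, but at signals that cannot be told from background. A_30_P01030372 ranged from -8.38 to -5.47. The forward probes A_30_P01017487, A_30_P01023733, A_30_P01029463 and A_30_P01024914 ranged from -8.71 to -6.11 and were not members.

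**Figure D1:**
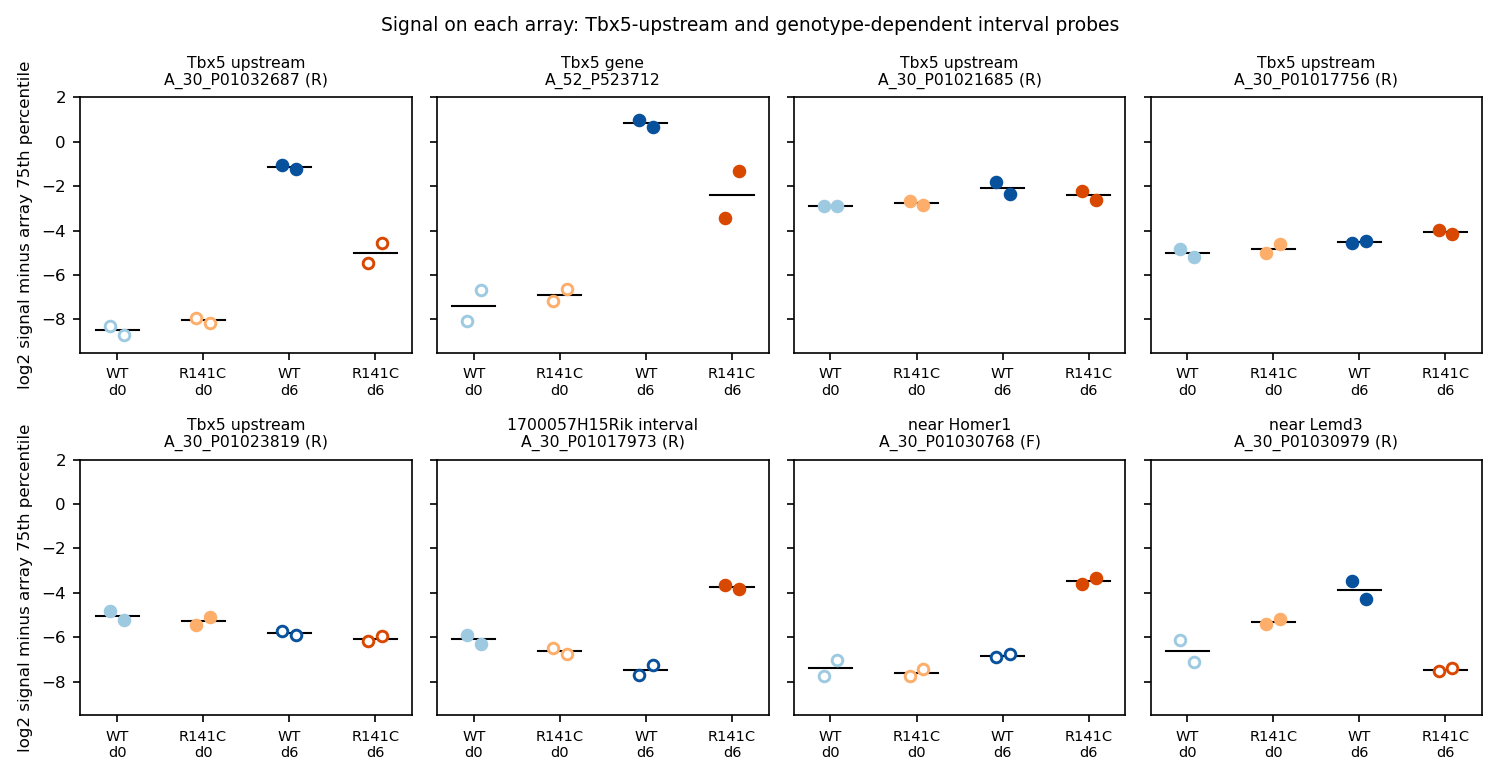
Each panel shows log2 signal minus the 75th percentile of the array (y axis) on the 8 arrays, by group (x axis; d0 and d6 are days 0 and 6), for 1 probe; short lines are group means, and open symbols mark groups in which fewer than 2 arrays were well above background. A_30_P01032687 and the Tbx5 probe are highest in WT at day 6, A_30_P01017973 and A_30_P01030768 in R141C at day 6, and the other 3 Tbx5-upstream probes shown move by under 1 unit between group means of a genotype.

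At day 6, R141C and WT differed in 3 of 8431 tested members, 2 higher and 1 lower in R141C, where 0.037% of all tested probes were called, 0.0158% higher and 0.0211% lower. The lower one is the Tbx5-upstream probe. A_30_P01017973, of an interval that holds a probe for 1700057H15Rik on its own strand, read -3.65 and -3.81 in R141C at day 6 and -7.71 and -7.25 in WT. At day 0 it read -5.90 and -6.29 in WT and -6.49 and -6.75 in R141C. Only the R141C arrays of day 6 and the WT arrays of day 0 were well above background, so the difference at day 6 was at least 3.11-fold (log2 difference 3.75 ± 0.26, adjusted p = 0.0381). The probe for 1700057H15Rik itself stood at -3.6 to -3.0 on all arrays, with a genotype difference of 0.01 at day 6 (adjusted p = 0.995).

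A_30_P01030768 lies 11.2 kb from the nearest probe of Homer1, a postsynaptic scaffold gene. It read -3.61 and -3.35 in R141C at day 6 and -7.74 to -6.77 on the other 6 arrays, none of which was well above background. The probe thus passed the filter only through the group in which it was called higher. The difference at day 6 was at least 3.70-fold (log2 difference 3.34 ± 0.28, adjusted p = 0.0429), and 2 further probes of its name did not pass. Homer1 differed by -0.25 between genotypes (adjusted p = 0.776). Both calls were lost when any 1 array but R141C day 6 replicate 2 was left out, with adjusted p from 0.0576 to 0.257 for A_30_P01017973 and from 0.0576 to 0.294 for A_30_P01030768. With normexp background correction the differences were 1.33 (adjusted p = 0.17) and 1.35 (adjusted p = 0.11). In the limma fit without the filter on dim probes neither was called (adjusted p = 0.0785 and 0.0819).

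At day 0 none of the members was called between genotypes, and 0.0% of all probes. Of 8431 tested members, 334 had an unadjusted p under 0.05 in limma's test, a threshold that a share of about 0.05 passes with no difference at all. The smallest adjusted p was 0.131, of A_30_P01019165 near Gm7609, which read -5.56 and -5.09 in WT and -8.25 and -8.01 in R141C. By the same measure A_30_P01033047, near the mitochondrial ribosomal gene Mrpl4, had an adjusted p of 0.33; it read -3.38 and -4.52 in R141C and -6.78 and -7.24 in WT. The 8 other named members of this comparison had adjusted p from 0.252 to 1. Nor was any member called for the change from day 0 to day 6 in R141C minus that in WT, where 0.0% of all probes were. In limma's test of that difference 454 of 8431 members had an unadjusted p under 0.05, again near a share of 0.05. The smallest adjusted p was 0.179.

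Among the members closest to a call on that difference were A_30_P01025874 and A_30_P01032527, which overlap each other on the strand opposite to Dancr, a noncoding RNA known for holding back differentiation. A_30_P01025874 read 2.81 and 2.64 in WT and 2.0 and 1.96 in R141C at day 0, then 0.40 and 0.64 in WT and 2.14 and 2.0 in R141C. A_30_P01032527 read 1.78 and 1.71 in WT and 1.03 and 1.03 in R141C, then -0.71 and -0.40 in WT and 0.99 and 0.97 in R141C. The WT arrays of day 6 were thus below all others for both probes. The fall was called in WT (-2.20, adjusted p = 0.000991, and -2.30, adjusted p = 0.000866) and not in R141C (0.09, adjusted p = 0.795, and -0.05, adjusted p = 0.901). The difference between these falls, 2.29 and 2.25, had an adjusted p of 0.235 for each.

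From day 0 to day 6 in WT, 417 members rose and 1170 fell, 18.8% of 8431 tested; over all tested probes 23.3% were called, 10% higher and 13.3% lower. The rises fell in 184 loci and the falls in 497. The median change was -0.25 for the members and -0.15 for all tested probes. With quantile normalization these medians were -0.13 and -0.06, and with normexp background correction -0.04 and -0.03. The calls differed with the days of detection, which also decide membership. A group of 2006 was well above background at day 0 only, and 1 of them rose and 622 fell; 153 were so at day 6 only, and 72 rose and 0 fell. Among the 5077 detected on all 8 arrays, 315 rose and 367 fell, with a median of -0.10, against -0.07 over all such probes. Adjusted over only the probes detected on all arrays, 358 rose and 411 fell, 15.1% of these members against 23.3% of all such probes. The total of 1587 calls dropped to 991 and 911 without WT day 0 replicate 1 or 2, and to 687 and 618 without WT day 6 replicate 1 or 2.

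In R141C 281 members rose and 703 fell, 11.7% of those tested, where 15% of all probes were called, 6.84% higher and 8.13% lower. Their median was -0.09, against -0.05 for all probes. Quantile normalization gave -0.06 and -0.03, and normexp background correction turned both medians positive, at 0.12 and 0.08. The total of 984 dropped to 385 without R141C day 0 replicate 1, to 656 without replicate 2 there, and to 626 without R141C day 6 replicate 1. When the second R141C array of day 6 was left out instead, 270 rose and 430 fell. In R141C the share of rises moved little with quantile normalization (31.2%) or a median shift (30.2%), against 28.6% here. In WT it moved more, from 26.3% to 33.5% with quantile normalization and 34.1% with a median shift. Other choices also moved it. Normexp background correction left 253 members higher and 290 lower in R141C, and 326 higher and 592 lower in WT. Restricted to probes detected on all arrays, 229 were higher and 257 lower in R141C, 9.6% of these members against 15.4% of all such probes. A fit of only the arrays compared gave 109 higher and 493 lower in R141C, 7.1% of members against 9.1% of all probes. The 2 differentiation comparisons share no array. Called in both were 195 rises, 46.8% of those in WT and 69.4% of those in R141C, and 574 falls, 49.1% and 81.7%. Of the 417 rises in WT, 402 had a positive change in R141C, and of the 1170 falls 1127 had a negative one. No share over all tested probes stands beside these overlaps, so they describe the members without showing a trait particular to them.

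Detection itself differed by day. Of the members, 23.8% passed the background flag at day 0 only, against 9.2% of other probes that passed, and 1.8% at day 6 only, against 2.4%; 60.1% were above background on all arrays, against 82.1%. The members were dim: those detected in just 1 group (942) had a median of -5.35 in their highest group, next to -5.92 for the 2036 probes that had a flagged array but missed the rule and -7.26 for the 5117 never flagged. Those detected in all 4 groups had a median of -2.38. Forward names gave 4082 members and reverse names 4369.

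Several of the largest rises in WT were in intervals of which every tested probe rose. Near Smad5, a transducer of BMP signals, A_30_P01031881 read -6.51 and -6.23 in WT at day 0 and 0.40 and -0.05 at day 6, a 93.5-fold rise with 1 of 2 day 0 arrays above background (6.55 ± 0.86, adjusted p = 0.00339). In R141C it read -6.27 and -7.56, then -2.96 and -0.20 (adjusted p = 0.01). The interval is on the strand opposite to the Smad5 probe, which rose by 0.74 in WT (adjusted p = 0.0393). All 3 probes of the interval rose in WT and 2 of 3 in R141C.

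Beside 2810405F15Rik, A_30_P01031324 read -8.07 and -8.56 in WT at day 0 and -0.66 and -1.08 at day 6, a rise of at least 50.8-fold (7.45 ± 0.95, adjusted p = 0.00311). In R141C it read -4.66 and -8.02, then -1.94 and -2.32, an 18.5-fold rise with 1 of 2 day 0 arrays above background (adjusted p = 0.0299). All 3 probes of that name rose in each genotype. On chromosome 18, A_30_P01018499, 24.8 kb from Il17b, read -6.69 and -6.86 in WT at day 0 and -0.46 and -0.92 at day 6. Its rise was at least 53.6-fold in WT (adjusted p = 0.000675) and at least 14.0-fold in R141C (adjusted p = 0.00247), and Il17b, a cytokine gene, fell by 4.02 in WT (adjusted p = 0.00428).

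Of the other named rises, A_30_P01024278, inside 5430401H09Rik, rose at least 16.6-fold in WT (adjusted p = 0.00239) and at least 13.9-fold in R141C (adjusted p = 0.0035). A_30_P01021663, near the centriole gene Cep135, rose at least 10.7-fold in WT (adjusted p = 0.00336) and 4.09-fold in R141C (adjusted p = 0.0312), with 1 of 2 day 0 arrays of R141C above background. A_30_P01027275, near Fignl2, was above background on all arrays and rose by 3.40 (adjusted p = 0.00201) and 1.61 (adjusted p = 0.0356). In R141C the 5 named rises also included A_30_P01018926, inside Mgam, which rose at least 13.2-fold (adjusted p = 0.00161) and in WT at least 6.36-fold (adjusted p = 0.0018).

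**Figure D2:**
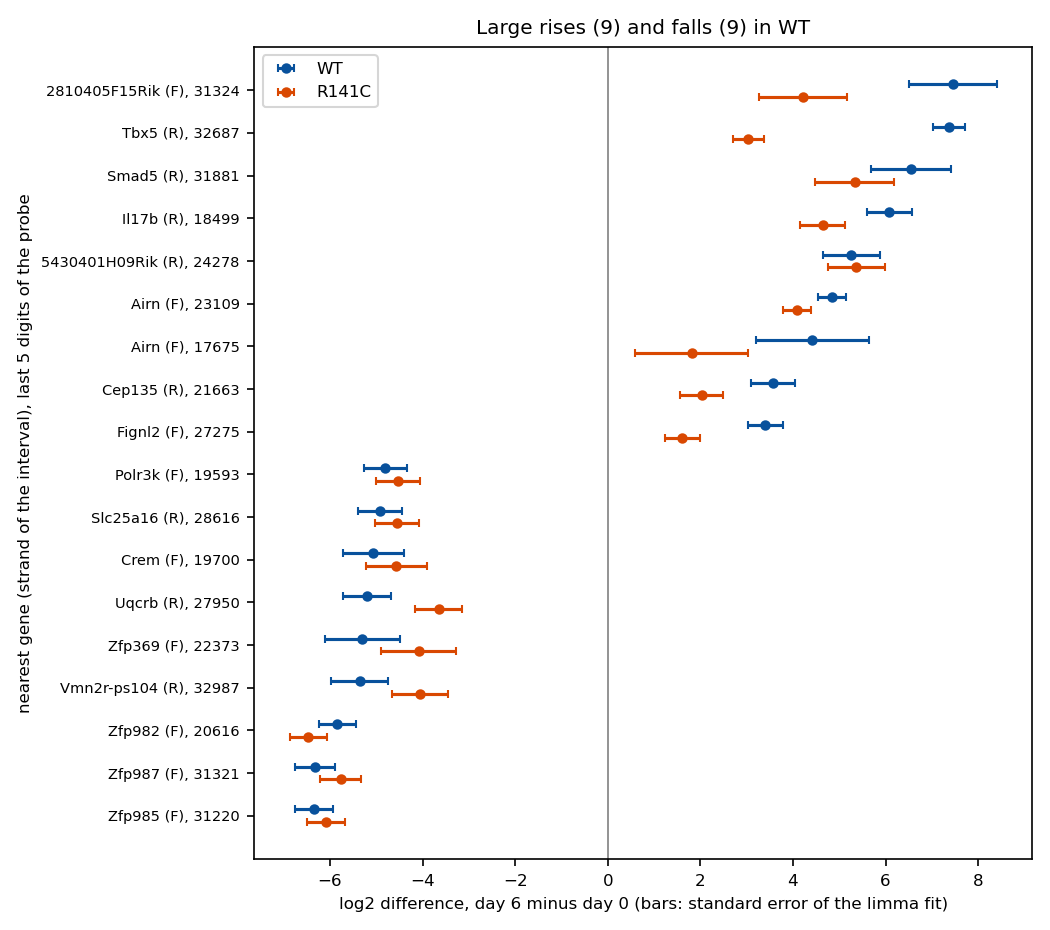
Log2 difference of day 6 minus day 0 (x axis) in WT and R141C for 9 of the largest rises and 9 of the largest falls among called members in WT, 1 probe per interval, named by nearest gene, strand and the last 5 digits of the probe (y axis); bars are standard errors of the limma fit. Each point of R141C lies on the same side of 0 as that of WT, with the fall near Zfp982 at -6.47 in R141C.

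Of the 23 named noncoding RNAs with a probe inside a member interval on the same strand, Snhg18, Platr10 and Platr14 had every such member called in both genotypes. The list of named RNAs was fitted on its own probes too, where 9 of 52 tested rose and 14 fell in WT, and 7 and 8 in R141C. Over all tested probes 10% rose and 13.3% fell in WT, and 6.84% and 8.13% in R141C. Snhg18, a small nucleolar RNA host gene, had 9 members, which rose by 2.14 to 2.72 in WT and by 2.18 to 2.75 in R141C; its own probe rose by 2.59. The 4 Platr10 members fell, with changes of -4.30 to -4.16 in WT and -4.40 to -3.89 in R141C, next to -4.09 in WT for the gene's probe. A_30_P01020183 among them read 2.45 and 2.72 in WT at day 0 and -1.37 and -2.07 at day 6, and 2.36 and 1.41, then -1.48 and -2.53, in R141C.

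The 5 Platr14 members fell, with changes of -4.10 to -1.87 in WT and -4.16 to -1.44 in R141C. Of Platr20, 5 of 7 members fell in WT and 1 of 7 in R141C, and of Platr4 3 of 5 fell in each. Airn had 3 of 4 members called higher in both genotypes. A_30_P01023109 read -6.82 and -6.70 in WT at day 0 and -1.88 and -1.94 at day 6, a rise of at least 21.8-fold (adjusted p = 0.000415). In R141C it read -6.95 and -6.63, then -3.11 and -2.31, a rise of at least 11.9-fold (adjusted p = 0.000969). The Airn probe itself rose by 3.97 in WT (adjusted p = 0.00542), and its rise of 1.90 in R141C missed the threshold (adjusted p = 0.0793).

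Crnde, a noncoding RNA named for its increase in colorectal tumours, had 3 of 5 members called higher in WT and 0 in R141C. Its member A_30_P01027299 read -3.36 and -3.90 in WT at day 0 and -0.32 and -0.79 at day 6, and -3.08 and -4.29, then -2.85 and -2.15, in R141C. The rise was 3.07 in WT (adjusted p = 0.00551) and 1.19 in R141C (adjusted p = 0.139), and the difference of these, -1.89, had an adjusted p of 0.855. Of Pvt1, 4 of 10 members fell in WT and 0 in R141C, and of Dancr 11 of 13 and 5 of 13. Morrbid went the other way, with 0 of 7 members called in WT and 4 of 7 lower in R141C. None of these differences in count was tested.

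Members of Tug1 (14), Snhg17 (12), Mir17hg (10) and Mirg (16) were not called in WT. Over the 147 pairs of such a member and a named RNA on the same strand, 41 were called on both sides, 39 in the same direction. The exceptions were A_30_P01030216 and A_30_P01023578 in a Dleu2 interval, singled out after their values were seen. A_30_P01030216 read -8.12 and -8.63 in WT at day 0 and -4.86 and -4.32 at day 6 (3.78, adjusted p = 0.000719), while the probe named Dleu2, a host gene of microRNAs, fell by 1.30 (adjusted p = 0.0173).

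Next to genes of the lists by function, members near cardiac transcription factors gave 5 rises and 1 fall among 33 tested in WT, and 2 rises in R141C, with medians of 0.00 and 0.25. The Tbx5-upstream probe A_30_P01032687 was among the rises in both genotypes, at 7.37 in WT and 3.04 in R141C. Shares over all tested probes were 10% higher and 13.3% lower in WT, and 6.84% and 8.13% in R141C.

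Near pluripotency factors 0 of 44 members rose and 10 fell in WT, with a median of -0.54, and 1 fell in R141C. Over all tested probes 10% rose and 13.3% fell in WT, and 8.13% fell in R141C. Of the 10 falls in WT, 6 were in 1 interval beside Prdm14, a factor of naive pluripotency. These 6 were 4 of 5 tested probes on the forward and 2 of 4 on the reverse strand. A_30_P01030569 read -2.31 and -1.37 in WT at day 0 and -5.66 and -6.86 at day 6, a fall of at least 11.6-fold (adjusted p = 0.00858). In R141C it read -1.57 and -3.67, then -4.82 and -5.60 (-2.59, adjusted p = 0.0649). The Prdm14 probe changed by -2.93 in WT (adjusted p = 0.055) and 0.36 in R141C (adjusted p = 0.816).

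Near mesoderm and endoderm factors 0 of 20 members rose and 2 fell in WT. Both were on the reverse strand 70.2 kb from Eomes, a T-box gene of mesoderm and endoderm, which is on the forward strand and itself rose by 2.68 (adjusted p = 0.00219). A_30_P01023296 read -1.97 and 0.34 in WT at day 0 and -3.45 and -4.61 at day 6 (-3.21, adjusted p = 0.0346). Near neural factors 0 of 14 members were called in WT, and 1 fell in R141C. The medians of these 2 lists in WT were -0.35 and -0.52, next to -0.25 for all tested members. Of all tested probes, 10% rose and 13.3% fell in WT, and 6.84% and 8.13% in R141C. The members and lists are few, overlap in loci, and give counts only.

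**Figure D3:**
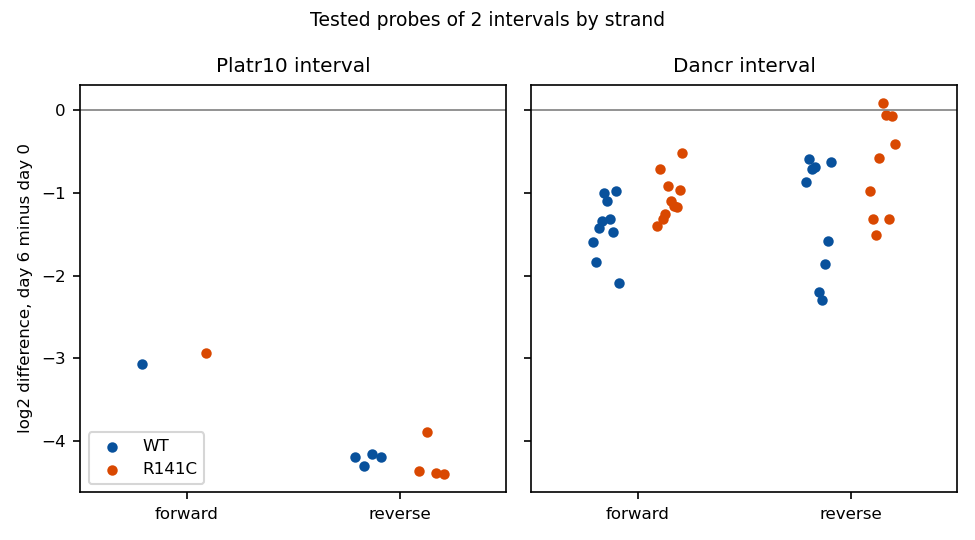
Log2 difference of day 6 minus day 0 (y axis) for each tested probe of the Platr10 and Dancr intervals by strand (x axis) in WT and R141C. The WT probes of both strands are below 0 in both intervals, and at Platr10 the reverse probes lie between -4.30 and -4.16 in WT and the forward one at -3.07.

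Overlapping probes were closer in value on the same strand than on opposite strands, a difference given without a test. Where 2 member probes overlapped by 30 bases or more on the same strand (180 pairs), their changes in WT had a Pearson r of 0.93 and differed by a median of 0.17, with 41 pairs called alike and 11 with 1 call. On opposite strands (512 pairs), r was 0.34, the median difference 0.55, and 26 pairs were called alike and 115 with 1 call; no pair of either kind was called in opposite directions. Pairs share loci and arrays, so these are descriptions. Of 774 intervals with tested probes of both strands, 8 had calls only higher on both strands, 78 only lower on both, 264 on 1 strand only and 416 on neither.

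In 4 intervals the strands were called in opposite directions, and in 4 more 1 strand held calls of both directions. The first kind lay over or near Macroh2a3, Nepro, Zfp983 and Mycbp; the last 3 are named after their values were seen. In the interval over Macroh2a3, a histone variant gene, which also holds Pvt1 on its forward strand, A_30_P01029551 (forward) read -3.33 and -2.0 in WT at day 0, then -5.22 and -5.13, and A_30_P01030270 (reverse) read -3.57 and -4.0, then -1.10 and -1.11. The forward probe fell by 2.51 (adjusted p = 0.0196) and the reverse one rose by 2.68 (adjusted p = 0.00506). Of the second kind, A_30_P01029836 (forward) near G3bp2, a stress granule gene, rose by 2.66 (adjusted p = 0.023), and A_30_P01032956 (reverse) fell by 0.91 (adjusted p = 0.0488). Near Zfp981, A_30_P01029960 (forward) rose by 3.27 (adjusted p = 0.00114) and A_30_P01024416 (reverse) fell by 2.26 (adjusted p = 0.0024).

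**Figure D4:**
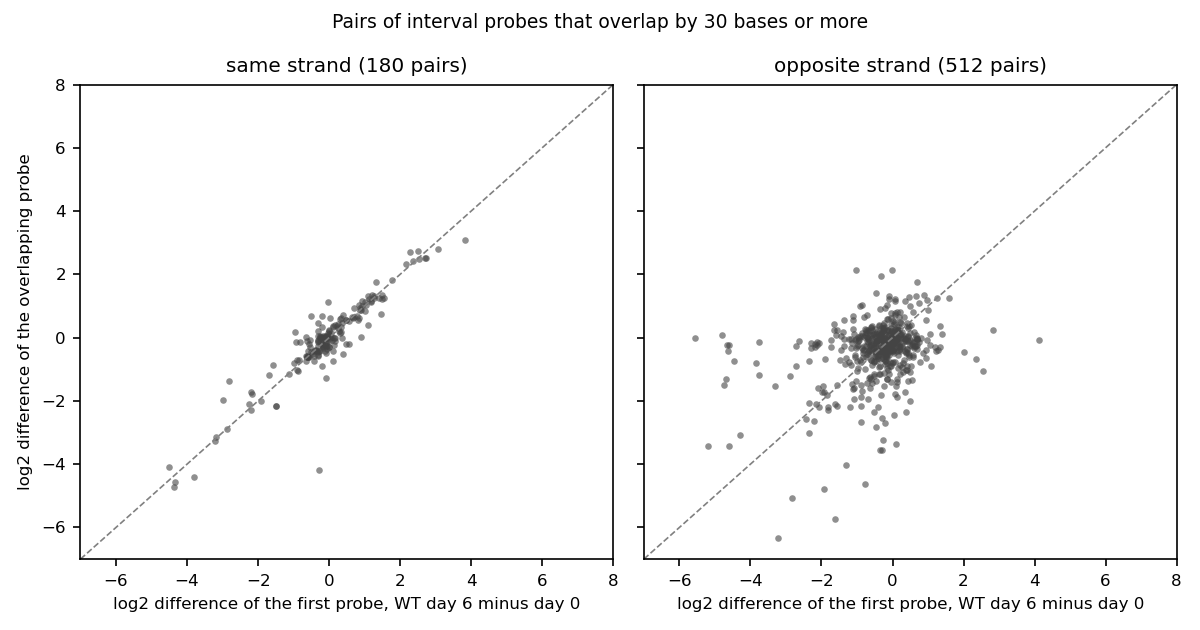
Log2 difference of WT day 6 minus day 0 of 2 interval probes that overlap by 30 bases or more (x and y axes, 1 point per pair), on the same strand (left, 180 pairs) and on opposite strands (right, 512 pairs); the dashed line is equality. Pairs of 1 strand lie along the line (r = 0.93), and pairs of opposite strands spread around 0 on 1 axis (r = 0.34).

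Several probes of 1 stranded name often did not move together. Of 2191 names with 2 or more tested probes, 721 had a call in WT, 369 had at least 2, and in 167 every tested probe was called in 1 direction; in 8 names calls went both ways. The median range of changes within a name was 0.64. Members were also set against the nearest gene. Distance and strand are those of that gene's nearest probe, while its change is that of its brightest probe, which may lie elsewhere. With the nearest probe inside the interval on the same strand (1063 members), r over members was 0.64. Of the 159 pairs called on both sides there, 150 had the same direction. The value of r was 0.27 inside on the opposite strand (772 members, 47 of 55 alike). Outside, r was 0.43 up to 10 kb on the same strand and 0.34 on the opposite one. Farther away it was 0.09 from 10 to 50 kb, 0.27 from 50 to 250 kb (1150 members) and 0.16 beyond that. These shares are over pairs called on both sides, which leaves out the members called alone (106 of the 1063).

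Some of the largest falls in WT were of probes among repeated zinc finger genes on chromosome 4. A_30_P01031321, 64.1 kb from Zfp987, read 1.35 and 0.46 in WT and 0.09 and -0.23 in R141C at day 0, then -5.26 and -5.56 in WT and -5.29 and -6.40 in R141C. Its fall was at least 71.8-fold in WT (-6.32 ± 0.44, adjusted p = 0.00051) and at least 42.8-fold in R141C (-5.77, adjusted p = 0.00109). The 4 forward probes of this interval fell by 5.92 to 6.32 in WT. A_30_P01020616, 2.1 kb from Zfp982, fell at least 41.4-fold in WT (adjusted p = 0.000484), and A_30_P01031220, 6.5 kb from Zfp985, at least 29.4-fold (adjusted p = 0.000425).

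Over that stretch, from 145000941 to 147183949 of chromosome 4 and chosen after its values were seen, 54 of 68 tested members in 21 intervals fell in WT and 1 rose; in R141C 43 fell and 0 rose. The medians were -2.44 and -1.64. The nearest gene was a Zfp gene for 56 of the 68, and the probes of all 7 such genes fell in WT, with a median of -3.65. Of the 68, 8 shared a run of 20 or more bases with a probe of another interval. A_30_P01028789 and A_30_P01023018, printed above, changed by -4.34 and -4.22 in WT (adjusted p = 0.000413 and 0.000492), and a probe of this kind may read RNA from several copies, so which copy fell cannot be told. Members near Zfp genes elsewhere gave 64 falls and 39 rises among 442, where 13.3% of all tested probes fell and 10% rose.

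**Figure D5:**
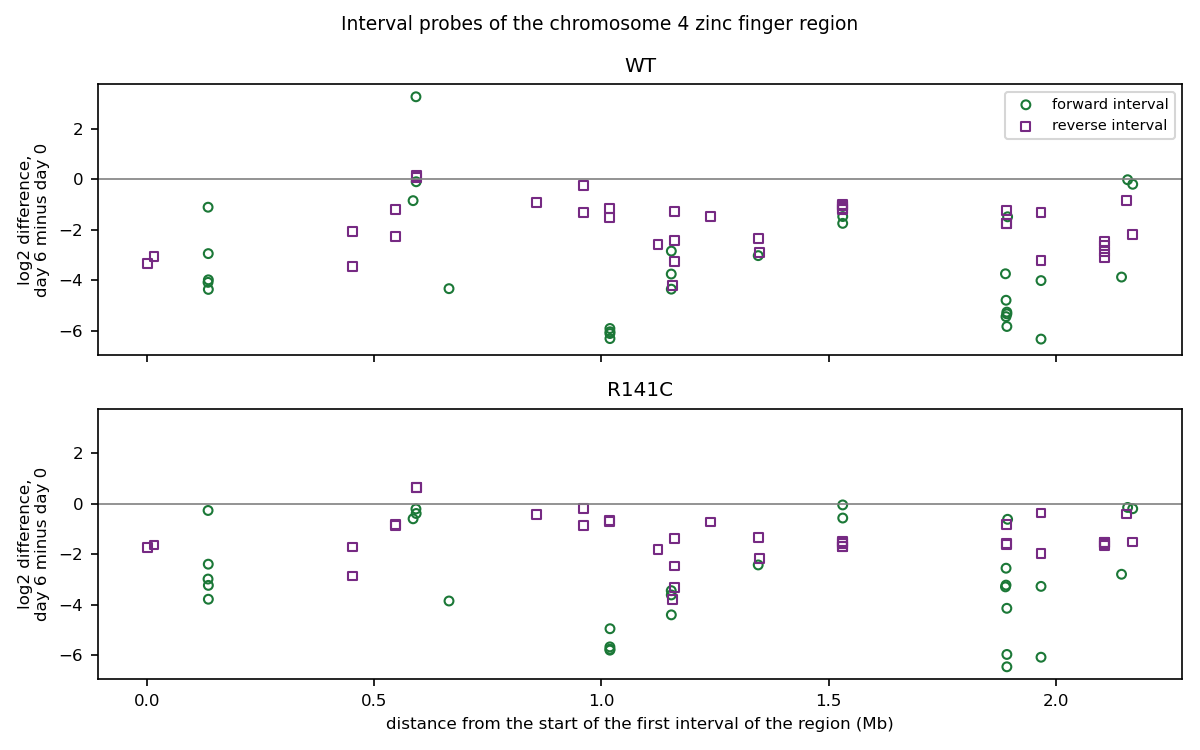
Log2 difference of day 6 minus day 0 (y axis) for the 68 tested members of the chromosome 4 region by distance from its first interval in Mb (x axis), in WT (top) and R141C (bottom); circles are forward and squares reverse intervals. Nearly all points are below 0 in both genotypes, down to -6.34 in WT, and 1 forward probe, A_30_P01029960, is at 3.27 in WT and -0.21 in R141C.

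The falls outside chromosome 4 named here were of 6 probes. On chromosome 13, A_30_P01032987 read 2.71 and 3.92 in WT at day 0 and -1.87 and -2.22 at day 6, a 41.1-fold fall (adjusted p = 0.00205). A_30_P01022373 (39.3-fold, adjusted p = 0.0058) and A_30_P01027950 (36.8-fold, adjusted p = 0.00123) of the same chromosome fell likewise, and all 3 were above background on every array. A_30_P01028616, near the mitochondrial carrier gene Slc25a16, fell by 4.92 (adjusted p = 0.00117). The change of A_30_P01019593, near Polr3k, was -4.80 (adjusted p = 0.00125), and that of A_30_P01019700 on chromosome 18 -5.06 (adjusted p = 0.00334). In R141C each of these 6 also fell, with changes of -4.57 to -3.65. The named falls there added A_30_P01033656, in the Zfp987 interval, and A_30_P01032065 and A_30_P01018848, which overlap by all but 1 base near Gm19792 and changed by -4.60 (adjusted p = 0.00259) and -4.57 (adjusted p = 0.00349).

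Calls were also set together by position. Of 340 bins of 2 Mb with 10 or more tested members, more members fell than did not in WT in 16, and more rose than did not in 2. Falls were also more frequent than rises over all tested members (13.9% and 4.95%) and over all tested probes (13.3% and 10%). The bin at 32 Mb of chromosome 15 had 10 of 16 higher, and 9 of those 10 are the Snhg18 members, which are not independent. The bin at 70 Mb of chromosome 2 had 10 of 12 lower over 4 intervals. These bins were looked at after the calls were known. Members that rose in WT had a median base composition of 41.7% GC and those that fell or were not called 45.0%. The nearest gene's probe was a median of 3.5 kb away for rises, 12.8 kb for falls and 9.1 kb for members not called.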

How the data were processed

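RNA of 8 samples was hybridised to 1-colour Agilent arrays, 1 slide. The deposited spot intensities are Feature Extraction output (version 11.5.1.1 per the file headers, 10.5.1.1 per the submitters' processing notes), background-subtracted by that software, with mm9 probe positions per the file headers. The deposited series matrix holds log2 values whose scaling is not given in the sources used here; it served as an alternative. Each array's log2 processed signal was reduced by its 75th percentile. Non-control probes well above background on both arrays of a group were fitted by probe with limma 3.58.1 (R 4.3.3), all 4 groups together, and p-values were adjusted by Benjamini-Hochberg over 37889 probes; an adjusted p under 0.05 counted as called. The fit was tested on simulated data. Named members were all Tbx5-upstream probes, the largest called changes, the smallest p where none was called, and the largest near listed genes or named noncoding RNAs. Alternatives covered scaling, background, filters, fit, replicate block and left-out arrays. Members and lists were chosen with earlier results of these data known. The number of arrays limits the precision. Some members that this rule takes are not reported here.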

Additional observations from a re-analysis of the deposited data

Results flagged for a closer look

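In all, 3 probes changed from day 0 to day 6 in opposite called directions in the genotypes. For A_30_P01017973, the change in R141C minus that in WT was 4.27 on the log2 scale, for A_30_P01030979, near Lemd3, -4.93, and for A_30_P01027049, near Sox4, -2.36. The limma tests of these differences gave adjusted p of 0.179, 0.199 and 0.244, so none was called. A_30_P01030979 read -6.12 and -7.13 in WT at day 0 and -3.48 and -4.28 at day 6, and -5.41 and -5.17, then -7.54 and -7.40, in R141C. A_30_P01027049 read -5.40 and -5.51, then -3.92 and -4.05, in WT, and -5.09 and -4.69, then -5.81 and -5.74, in R141C.

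Interval probes of chromosome X were outside the rule, which takes numbered chromosomes. Of 577, 316 were well above background on both arrays of a group, and 36 rose and 38 fell in WT, where 10% and 13.3% of all tested probes did, while 0 were called between genotypes at day 6.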

How the results depend on the processing

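Against 1587 members called in WT differentiation, normexp background correction gave 918, probes above background on all 8 arrays 769, 1 probe per name 530 and the mean of a name's probes 654; leaving out 1 array gave 618 to 1660. Against 984 in R141C these gave 543, 486, 312 and 383, a fit of only the arrays compared 602, and leaving out 1 array 385 to 954. At day 6, the 3 genotype calls became 1 with a median shift, normexp or the series matrix, and 0 with no filter, all 8 arrays, trended robust eBayes, only the arrays compared or the replicate block; leaving out 1 array gave 0 to 7, with 7 without R141C day 6 replicate 2. The change in R141C minus that in WT gave 1 call with quantile normalization and 1 with the series matrix. The Tbx5-upstream probe was at -3.88 with quantile normalization (adjusted p = 0.0589), -3.96 with a median shift (0.0628), and -3.87 with no filter (0.0819), trended robust eBayes (0.102), only the arrays compared (0.232) and the replicate block (0.111); leaving out 1 array gave -4.33 to -3.41. At day 6, A_30_P01017756 turned to -0.03 with the mean of its name's probes and A_30_P01023819 to 0.02 with normexp. Same-numbered replicates shared only a number, with correlations of their deviations from -0.13 to 0.33, and the replicate block gave 1629 calls in WT and 1055 in R141C; crossing the numbers at day 0, chosen after seeing the data, gave 0. Without the chromosome 4 region, also chosen after seeing the data, 1532 and 941 were called. The cause of these shifts was not tested. Dim probes limit the folds to bounds.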
